A study of Mus musculus with 32 samples.

Results

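Complement RNA was followed in mouse brain 1 day after stroke through 9 genes, chosen by name from the 33280 genes of each count table. They are C1qa, C1qb and C1qc, the chains of the C1q recognition molecule, C4b and C3, the central cleaved components, Cfb, factor B of the alternative pathway, C3ar1 and C5ar1, the receptors of the released fragments C3a and C5a, and Serping1, the C1 inhibitor. All 9 passed the filter on low counts in both tables. Wild type C57BL/6JCrl mice of both sexes, young adults at the first gavage per the methods, received the CSF1R inhibitor BLZ945 at 200 mg per kg daily by oral gavage for 7 days or, as controls (CTL), its cyclodextrin vehicle. All mice then had a thromboembolic stroke 8 weeks later, so that no group was free of stroke and the contralateral hemisphere of the same mouse was the reference. From 4 CTL and 4 BLZ945 mice, whole brain tissue and subdural CNS-associated macrophages (sdCAMs) were taken from the ipsilateral, lesioned hemisphere and from the contralateral one. The sdCAMs had been sorted from brain freed of choroid plexus as Ly6C-Ly6G-CD11c- cells positive for CD45, CD11b and CD206, and gave 16 libraries, as did tissue. CD206 is the product of Mrc1, CD11b of Itgam and CD11c of Itgax.

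Complement is a cascade of plasma and tissue proteins that tags material for removal and calls in immune cells. C1q starts the classical pathway by binding tagged surfaces, after which C4 and C3 are cleaved in turn. C3 can also be cleaved through factor B in the alternative pathway, and the fragments C3a and C5a act on myeloid cells through receptors on their surface. The C1 inhibitor blocks the proteases that C1q carries. In brain, C1q is made mainly by microglia and other resident macrophages, C4 and C3 largely by glia and infiltrating cells, and the C1 inhibitor by vascular, fibroblast and other stromal cells.

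The upstream sequences of 3 members are shown because the C1q chains moved together, C3ar1 stood for the receptors and C3 did not follow either. Each run covers the 240 bases from 250 to 11 bases before the RefSeq start in GRCm38.p6, on the minus strand, 5′ to 3′, with matches to the motifs searched in capitals. The C1qb window lies at chr4:136886211-136886450, the C3ar1 window at chr6:122856168-122856407 and the C3 window at chr17:57228147-57228386.
C1qb: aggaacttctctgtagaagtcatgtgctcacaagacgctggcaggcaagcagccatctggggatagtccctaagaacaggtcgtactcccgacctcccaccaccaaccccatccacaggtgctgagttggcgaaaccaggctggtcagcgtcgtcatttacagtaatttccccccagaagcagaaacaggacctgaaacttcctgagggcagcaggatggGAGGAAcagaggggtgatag
C3ar1: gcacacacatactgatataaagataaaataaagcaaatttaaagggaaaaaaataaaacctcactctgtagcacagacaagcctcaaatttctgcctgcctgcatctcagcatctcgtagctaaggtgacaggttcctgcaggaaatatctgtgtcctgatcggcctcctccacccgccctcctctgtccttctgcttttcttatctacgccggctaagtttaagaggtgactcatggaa
C3: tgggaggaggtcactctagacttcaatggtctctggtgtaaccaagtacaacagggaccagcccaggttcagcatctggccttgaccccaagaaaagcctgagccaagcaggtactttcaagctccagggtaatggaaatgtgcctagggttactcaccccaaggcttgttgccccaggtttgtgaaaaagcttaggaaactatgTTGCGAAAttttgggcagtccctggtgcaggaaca
The motifs were the PU.1 core GAGGAA, the C/EBP motif TTGCNNAA, the interferon-stimulated response element GAAANNGAA and the gamma-activated site TTCNNNGAA, each searched on both strands of the 250 bases before the start. The capitals mark the PU.1 core of C1qb, 30 to 25 bases before the start, and the C/EBP motif of C3, 45 to 38 bases before it. Bases after the start were found near the beginning of an annotated transcript for C3, C3ar1, C1qc and C5ar1 but not for C1qb. The start used for C1qb is therefore less certain. The C3ar1 window held none of the 4. C1qc held a PU.1 core at 193 to 188 bases before its start and C5ar1 a response element at 66 to 58. Of 32851 promoters of the same length, 23.3% held the PU.1 core, 9.6% the C/EBP motif, 7.1% the response element and 7.0% the activated site, so such matches are common. C1qb, C1qc and C1qa are neighbors on chromosome 4. No promoter was printed for C1qa, C4b, Cfb and Serping1.

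Tissue libraries held 9288717 to 12781505 counts on genes and the sdCAM libraries used held 7397393 to 11081409, so that 3 counts were worth 0.235 to 0.323 CPM (counts scaled to a library of 1000000) in tissue and 0.271 to 0.406 in sdCAMs. The ipsilateral sdCAM libraries of CTL mouse 2 and BLZ945 mouse 1 held 54055 and 55155 counts and were left out. The labels mark the RNA of both as degraded. For CTL mouse 2 the sample labels and the column names of the tissue table disagree on the hemisphere. The labels were followed, which gives this mouse 8.83 CPM of C5ar1 on the ipsilateral and 1.44 on the contralateral side. Mrc1 was present in every sdCAM library, at a median of 103 CPM per kb contralaterally and 238 ipsilaterally, against 0.488 and 0.589 in tissue. The microglial genes P2ry12 and Tmem119 exceeded it in sdCAM libraries, at 1018 and 892 CPM per kb contralaterally and 1149 and 1261 ipsilaterally, so the sorted material also carried RNA of microglial genes.

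Per kb of exon the C1q chains were the most abundant members in both materials. In contralateral tissue the median levels were 59.4 CPM per kb for C1qa, 52.7 for C1qb and 29.6 for C1qc, followed by C4b at 4.86 and Serping1 at 3.31. C5ar1 at 0.607, C3ar1 at 0.5896 and C3 at 0.316 were lower, and Cfb at 0.048 was the lowest. The ranges of C1qa and C1qb overlapped, as did those of C4b and Serping1, of C5ar1, C3ar1 and C3, and of C3 and Cfb. These neighbors cannot be ordered beyond their spread.

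In contralateral sdCAMs the order was C1qb at 5183 CPM per kb, C1qa at 2946 and C1qc at 2467, then C5ar1 at 257 and C3ar1 at 105. Serping1 at 19.97, C4b at 16.6 and C3 at 2.504 came next and Cfb at 0.048 last. By their medians both receptors thus stood above C4b and Serping1 in sdCAMs and below them in tissue. The ranges of neighbors overlapped within the C1q chains, between the receptors and among Serping1, C4b and C3. C3ar1, from 51.2 CPM per kb, also overlapped Serping1, up to 56.3, and C4b, up to 66.9. The 3 chains also stood in different proportions: C1qb was 1.61 to 1.86 times C1qa per kb in the 14 sdCAM libraries and 0.796 to 1.0126 times in the 16 tissue libraries. C1qc was 0.754 to 0.866 times C1qa in sdCAMs and 0.430 to 0.551 times in tissue. Neither pair of ranges overlapped.

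Stroke was followed in tissue by more RNA of both fragment receptors and of C4b. Genes counted as called when edgeR's quasi-likelihood test gave an adjusted p (Benjamini-Hochberg, over all genes) under 0.05 together with a log2 fold change beyond 0.59. In the mean of both treatments 3 of the 9 members rose and none fell, against 1.93% of 18968 genes called up and 0.0738% called down. The same 3 were called in CTL mice, where 0.443% of genes were called up, and in BLZ945 mice, where 1.12% were. The median log2 fold change of the members was 0.57, beside -0.01 over all genes. These are bulk values, in which more cells of a type and more RNA per cell cannot be told apart. The 3 calls are sensitive to the hemisphere labels of CTL mouse 2. With that mouse left out they held in the mean of both treatments and in BLZ945 mice, while in CTL mice C5ar1 alone held. With its column names followed no member was called in any of the 3 comparisons.

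C5ar1, the receptor of the chemoattractant C5a, showed the largest change. In CTL mice 1 to 4 it stood at 1.74, 1.44, 0.83 and 1.02 CPM contralaterally and at 6.95, 8.83, 5.31 and 9.72 ipsilaterally. In BLZ945 mice the contralateral values were 2.36, 1.99, 1.67 and 0.84 and the ipsilateral ones 12.0, 10.1, 5.89 and 10.8. Every ipsilateral library lay above every contralateral one, as for 0.817% of all genes over both treatments together. The log2 fold change was 2.54 ± 0.22 (SE, adjusted p = 3.54e-06), 2.59 ± 0.32 in CTL (adjusted p = 0.00068) and 2.504 ± 0.31 in BLZ945 mice (adjusted p = 0.000339). With the column names followed for CTL mouse 2 it was 1.70 in the mean of both treatments (adjusted p = 0.128) and without this mouse 2.55 (adjusted p = 6.91e-05).

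C3ar1, the receptor of C3a, rose as well. CTL mice held 2.38, 4.25, 3.30 and 2.31 CPM contralaterally and 9.99, 8.49, 6.72 and 7.91 ipsilaterally. BLZ945 mice held 3.86, 2.30, 2.698 and 2.25 contralaterally and 16.5, 13.2, 5.99 and 16.1 ipsilaterally. The sides did not overlap in CTL mice, as for 2.45% of genes, in BLZ945 mice, as for 4.2%, or over both, as for 0.817%. BLZ945 mouse 3 had the lowest ipsilateral value. The log2 fold change was 1.83 ± 0.21 (adjusted p = 5.15e-05), with 1.43 ± 0.29 in CTL (adjusted p = 0.0347) and 2.22 ± 0.30 in BLZ945 mice (adjusted p = 0.000632). The value in CTL mice lost its call without any 1 of the CTL mice or without BLZ945 mouse 4, at adjusted p-values of 0.0573 to 0.338, and the mean of both treatments was 1.52 with the column names followed for CTL mouse 2 (adjusted p = 0.0607).

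C4b, whose product is cleaved after C1q has bound, was higher on the lesioned side in all 8 mice. It stood at 25.5, 31.4, 20.01 and 26.3 CPM contralaterally and at 40.3, 54.7, 45.7 and 46.0 ipsilaterally in CTL mice. The BLZ945 values were 45.2, 24.04, 29.1 and 33.4 contralaterally and 82.2, 62.3, 62.3 and 67.0 ipsilaterally. The sides were apart within each treatment, as for 2.45% of genes in CTL and 4.2% in BLZ945 mice, and over both treatments contralateral BLZ945 mouse 1 reached into the CTL ipsilateral range. Its log2 fold change was 0.95 ± 0.12 (adjusted p = 0.000131). CTL mice gave 0.85 ± 0.17 (adjusted p = 0.0318) and BLZ945 mice gave 1.06 ± 0.17 (adjusted p = 0.00286). The call in CTL mice was lost without any 1 of the CTL mice or without BLZ945 mouse 3 or 4, at adjusted p-values of 0.0507 to 0.247, and with the column names followed for CTL mouse 2 the mean of both treatments was 0.71 (adjusted p = 0.116). C4a, a near-identical copy with which short reads of C4b can be confused, stayed at or below 1.41 CPM.

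The C1q chains changed little, in the same direction in all mice. For C1qb, CTL mice held 54.8, 51.4, 55.8 and 50.8 CPM contralaterally and 73.8, 88.4, 70.7 and 76.4 ipsilaterally. BLZ945 mice held 71.9, 63.55, 60.9 and 58.8 contralaterally and 97.9, 83.8, 82.5 and 87.3 ipsilaterally. Each mouse was higher on the lesioned side for each of the 3 chains. The log2 fold changes over both treatments were 0.39 ± 0.06 for C1qa (adjusted p = 0.00114), 0.50 ± 0.06 for C1qb (adjusted p = 8.51e-05) and 0.34 ± 0.07 for C1qc (adjusted p = 0.00564). All 3 passed the adjusted p, as did 3.05% of genes, and none the fold threshold, so none was called. C1qa lay between 55.4 and 61.8 CPM contralaterally in CTL mice and between 73.8 and 86.6 ipsilaterally, and C1qc between 48.8 and 57.1 and between 60.4 and 78.5.

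C3, Serping1 and Cfb were not called in tissue. C3 stood at 0.87, 3.57, 1.13 and 1.39 CPM contralaterally and 1.80, 3.43, 2.65 and 3.63 ipsilaterally in CTL mice, and at 4.93, 0.63, 1.86 and 2.72 against 6.71, 1.30, 3.47 and 3.10 in BLZ945 mice. The SD between contralateral mice, 1.24 CPM around a mean of 1.74 in CTL and 1.81 around 2.53 in BLZ945, was larger than the step to the ipsilateral means of 2.88 and 3.64. That SD does not use the pairing of the hemispheres within a mouse. C3 was higher on the lesioned side in 3 of 4 CTL and 4 of 4 BLZ945 mice. Its log2 fold change, 0.62 ± 0.39, did not pass the test (adjusted p = 0.532). Serping1 stood at 7.77, 7.99, 7.84 and 4.07 CPM contralaterally and 9.14, 10.7, 8.58 and 10.3 ipsilaterally in CTL mice, and at 12.3, 5.44, 7.63 and 4.96 against 13.5, 8.62, 13.6 and 12.2 in BLZ945 mice. All 8 mice were higher on the lesioned side, with a log2 fold change of 0.57 ± 0.19 (adjusted p = 0.123). With the mouse as a replicate block both were called, C3 at 0.69 (adjusted p = 0.0463) and Serping1 at 0.61 (adjusted p = 0.0101), which gave 5 members in place of 3. Cfb held 0 to 7 counts per tissue library, at or near the 3-count floor, and a change in it was not detectable at this depth.

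**Figure D1:**
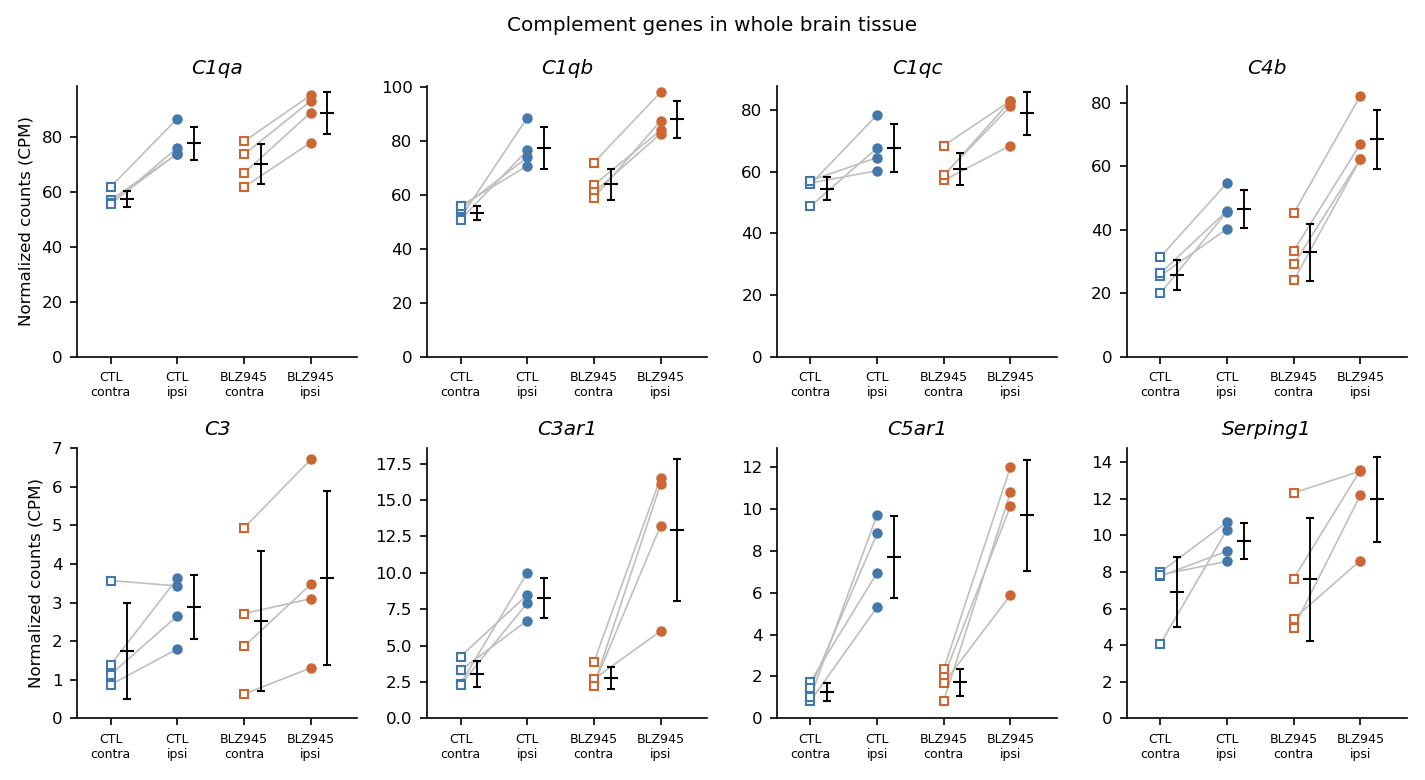
Normalized counts (CPM, linear axis from 0) of 8 members in whole tissue, without Cfb. Each point is a mouse, open squares are contralateral and filled circles ipsilateral, gray lines join the hemispheres of a mouse, and bars give the mean ± SD of 4 mice. C5ar1 and C3ar1 show no overlap of the sides over both treatments, as for 0.817% of genes, while C3 and Serping1 overlap in BLZ945 mice.

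Monocyte and neutrophil markers were read in the same libraries. The summed level of 8 monocyte markers was 80.3 to 110 CPM in contralateral and 131 to 230 in ipsilateral tissue, with 3 of 8 markers called up. Most of that sum was Fn1, which other cells also make, at a mean of 73.8 CPM contralaterally and 141 ipsilaterally. Of 10 neutrophil markers 6 were tested and 2 called up, with sums of 4.82 to 7.84 CPM against 5.00 to 9.89, and the defining genes Ly6g and Cxcr2 were at 0 in all contralateral libraries. The sum of 10 sdCAM markers was 22.1 to 32.8 CPM against 32.05 to 43.0, with none called. Of 9 microglial markers 2 were called down and none up, and P2ry12 stood at 10.02 CPM per kb contralaterally and 5.71 ipsilaterally. Their part in the rise of C3ar1, C5ar1 and C4b was not tested.

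Repopulated and control tissue were then compared, to ask whether the earlier treatment changed complement RNA at the lesion. No member differed between BLZ945 and CTL mice in the stroke response, in ipsilateral or in contralateral tissue, and no gene at all was called in any of these 3 comparisons by edgeR. At an unadjusted p under 0.05 the numbers of members were 0, 5 and 2. The share of all genes at that cutoff is not given beside them, so these counts are not read as a result. DESeq2 and limma-voom called no member either. C4b came closest: its 4 ipsilateral BLZ945 values, 62.3 to 82.2 CPM, lay above the 4 CTL values, 40.3 to 54.7, as did those of 1.15% of genes. The log2 difference was 0.55 ± 0.17 (adjusted p = 0.958). C3ar1 was 0.65 ± 0.27 higher in ipsilateral BLZ945 tissue with overlapping groups (adjusted p = 0.958), and its stroke response was 0.79 ± 0.41 larger (adjusted p = 1), with a 95% interval of -0.02 to 1.60 that leaves room for no difference and for a large one. In contralateral tissue C1qa was 0.28 ± 0.09 higher in BLZ945 mice (adjusted p = 1), at 61.7 to 78.3 CPM against 55.4 to 61.8, so that the groups just overlapped. There all BLZ945 values of C1qb and C1qc were above all CTL values, as for 1.2% of genes, with log2 differences of 0.26 ± 0.09 and 0.16 ± 0.09 (adjusted p = 1 for both).

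In sdCAMs the receptors rose after stroke and the C1 inhibitor fell. Over both treatments the C1q chains rose by the standard normalization. When libraries were scaled to 20 macrophage genes they stood at -0.065 to -0.017 on the log2 scale, without a call. With that scaling C3ar1 and C5ar1 kept their calls at 0.59 and 0.60, barely beyond the fold threshold. In the mean of both treatments 6 of the 9 members were called, 5 up and 1 down, against 3.91% of 18297 genes up and 11.1% down. The 1 fall among 9 members is at the share of all genes that fell. In CTL mice 1 member was called down, beside 2.36% of genes down and 0.426% up. In BLZ945 mice 4 were called up, beside 1.2% up and 4.41% down. The median log2 fold change of the members was 0.66 and that of all genes -0.16, which scaling to macrophage genes moved to -0.91 and plain library totals to -0.32. Over all genes 715 rose and 2030 fell, against 283 and 2322 with library totals and 21 and 5687 scaled to macrophage genes. When the libraries left out for low counts were put back, Serping1 alone was called in the mean of both treatments and no member in either treatment.

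C5ar1 in sdCAMs stood at 871, 395, 409 and 851 CPM contralaterally in CTL mice 1 to 4 and at 1500, 946 and 1870 ipsilaterally in CTL mice 1, 3 and 4. BLZ945 mice 1 to 4 held 890, 468, 450 and 971 contralaterally and BLZ945 mice 2 to 4 held 1424, 1617 and 2195 ipsilaterally. The sides were apart within each treatment, as for 5.7% of genes in CTL and 7.44% in BLZ945 mice, and overlapped over both through CTL mouse 3. The log2 fold change was 1.26 ± 0.25 (adjusted p = 0.00384), with 1.19 ± 0.36 in CTL (adjusted p = 0.0908) and 1.33 ± 0.36 in BLZ945 mice (adjusted p = 0.0414). Scaled to macrophage genes the mean of both treatments was 0.60 (adjusted p = 0.0426). The call in BLZ945 mice was lost without any 1 of those mice, at adjusted p-values of 0.054 to 0.187, and with the mouse as a replicate block CTL mice passed at 1.04 (adjusted p = 0.0339).

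C3ar1 followed the same course. CTL mice held 605, 304, 316 and 579 CPM contralaterally and 1289, 646 and 1160 ipsilaterally, and BLZ945 mice 555, 345, 221 and 727 against 988, 1160 and 1191. Ipsilateral values were above contralateral ones in each treatment, as for 5.7% of genes in CTL and 7.44% in BLZ945 mice. The log2 fold change was 1.23 ± 0.26 (adjusted p = 0.005), with 1.19 ± 0.37 in CTL (adjusted p = 0.0969) and 1.27 ± 0.37 in BLZ945 mice (adjusted p = 0.0555), which passed with the replicate block at 1.54 (adjusted p = 0.0127). Scaled to macrophage genes the mean of both treatments was 0.59 (adjusted p = 0.0399).

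The C1q chains had the highest levels of the members in sdCAMs. C1qb stood at 7984, 5624, 5655 and 6032 CPM contralaterally and 9729, 8513 and 6507 ipsilaterally in CTL mice. In BLZ945 mice it stood at 5015, 5951, 2884 and 4951 contralaterally and 10262, 9283 and 7617 ipsilaterally. The sides overlapped in CTL mice through the high contralateral value of mouse 1 and were apart in BLZ945 mice, as for 7.44% of genes. The contralateral value of BLZ945 mouse 3 was the lowest of all 14 libraries. The log2 fold changes over both treatments were 0.64 ± 0.17 for C1qa (adjusted p = 0.0224), 0.66 ± 0.17 for C1qb (adjusted p = 0.0163) and 0.69 ± 0.17 for C1qc (adjusted p = 0.0142). Scaled to macrophage genes they were -0.065, -0.043 and -0.017, and without CTL mouse 3 or without BLZ945 mouse 3 none of the 3 was called.

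In CTL mice the C1q changes did not pass the test, at 0.33, 0.38 and 0.38 for C1qa, C1qb and C1qc (adjusted p = 0.485, 0.401 and 0.413). In BLZ945 mice all 3 were called, at 0.94 ± 0.25 (adjusted p = 0.0374), 0.95 ± 0.24 (adjusted p = 0.0332) and 1.00 ± 0.24 (adjusted p = 0.0267). The difference between the treatments was 0.60 for C1qa (95% interval -0.08 to 1.29), 0.56 for C1qb (-0.11 to 1.24) and 0.62 for C1qc (-0.06 to 1.31), with an adjusted p of 1 for each. With the replicate block C1qc kept its call in BLZ945 mice and C1qa (adjusted p = 0.0539) and C1qb (adjusted p = 0.0517) did not, and over both treatments C1qa did not (adjusted p = 0.0506). All 3 lost the call in BLZ945 mice without any 1 of the BLZ945 mice, C1qa and C1qb also without CTL mouse 3 and C1qa without CTL mouse 4, and, scaled to macrophage genes, stood there at 0.10, 0.10 and 0.16.

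Serping1 fell. It stood at 23.6, 95.02, 26.3 and 40.9 CPM contralaterally and 6.90, 2.46 and 10.1 ipsilaterally in CTL mice. The BLZ945 values were 93.1, 52.0, 131 and 36.01 contralaterally and 7.56, 25.7 and 32.02 ipsilaterally. Within each treatment every ipsilateral library was below every contralateral one, as for 10.2% of genes in CTL and 12.4% in BLZ945 mice. All 6 mice with both libraries were lower on the lesioned side. The log2 fold change was -2.34 ± 0.47 (adjusted p = 0.00371), -2.83 ± 0.68 in CTL (adjusted p = 0.0372) and -1.84 ± 0.64 in BLZ945 mice (adjusted p = 0.108). The call in CTL mice was lost without any 1 of the CTL mice or without BLZ945 mouse 1, at adjusted p-values of 0.053 to 0.128, and with the replicate block (adjusted p = 0.0571).

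**Figure D2:**
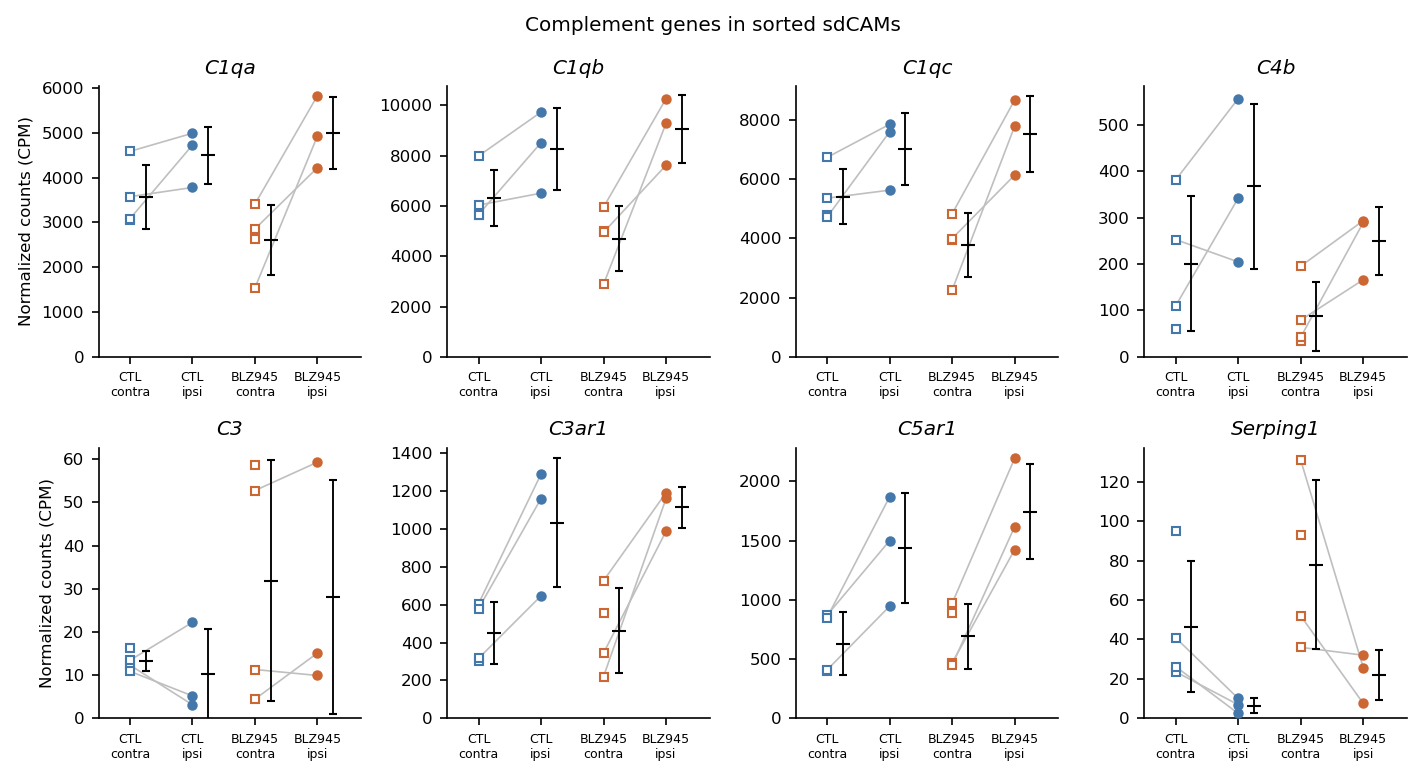
Normalized counts (CPM, linear axis from 0) of 8 members in sdCAM libraries, without Cfb. Symbols are as for tissue, with 4 contralateral and 3 ipsilateral mice per treatment and bars for mean ± SD. The receptors rise and Serping1 falls in each mouse with both libraries. The C1q chains rise in each of these mice on this scale, but their mean change over both treatments is not a rise when scaled to macrophage genes.

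C4b and C3 varied widely in sdCAMs. C4b stood at 253, 60.1, 110 and 381 CPM contralaterally and 204, 342 and 556 ipsilaterally in CTL mice, and at 34.4, 79.1, 42.3 and 195 against 166, 289 and 293 in BLZ945 mice. The sides overlapped in both treatments, and the log2 fold change of 1.19 ± 0.43 did not pass the test (adjusted p = 0.0716). The rise of C4b was called in 4 of 18 alternatives, 1 of them without BLZ945 mouse 4 (adjusted p = 0.0291). C3 stood at 12.3, 16.3, 10.9 and 13.4 CPM contralaterally and 3.14, 5.19 and 22.2 ipsilaterally in CTL mice, and at 58.8, 4.44, 11.3 and 52.7 against 15.1, 9.92 and 59.3 in BLZ945 mice. BLZ945 mice 1 and 4 and no CTL mouse exceeded 50 CPM, and the log2 fold change was -0.27 ± 0.59 (adjusted p = 0.835). Contralaterally the same mice had monocyte marker sums of 1532 and 1461 CPM, beside 229 to 740 in the other 6 libraries, and neutrophil sums of 2069 and 2772 CPM, beside 306 to 771 in the CTL and 255 and 3101 in the other BLZ945 libraries. Their part in the C3 level was not tested. Cfb held 0 to 10 counts per library.

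RNA of other cell types differed between the sides in the same libraries. Summed endothelial markers were 1350 to 5094 CPM contralaterally and 75.7 to 288 ipsilaterally, with 8 of 8 called down. Choroid plexus markers ran from 30.7 to 37713 against 0.502 to 1513 CPM with 4 of 6 called down, oligodendrocyte markers from 668 to 6096 against 225 to 817 with 6 of 6 called down, and fibroblast markers from 119 to 1124 against 40.9 to 468 with 2 of 7 called down. Conversely, sdCAM markers ran from 1872 to 6959 against 5078 to 10742 CPM with 7 of 10 called up, and microglial markers from 7863 to 21122 against 11158 to 30438 with 2 of 9 called up. No endothelial, choroid plexus or fibroblast marker was at 0 in all libraries of a side. Contralateral BLZ945 mouse 3, with the least C1q and the most Serping1, also had the highest choroid plexus sum, 37713, and the lowest sdCAM and microglial sums. Without this mouse Serping1 changed by -2.22 (adjusted p = 0.0179), C5ar1 by 1.20 (adjusted p = 0.0153) and C3ar1 by 1.10 (adjusted p = 0.0154). The part of these cell types in the fall of Serping1 and the rise of the other members was not tested.

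**Figure D3:**
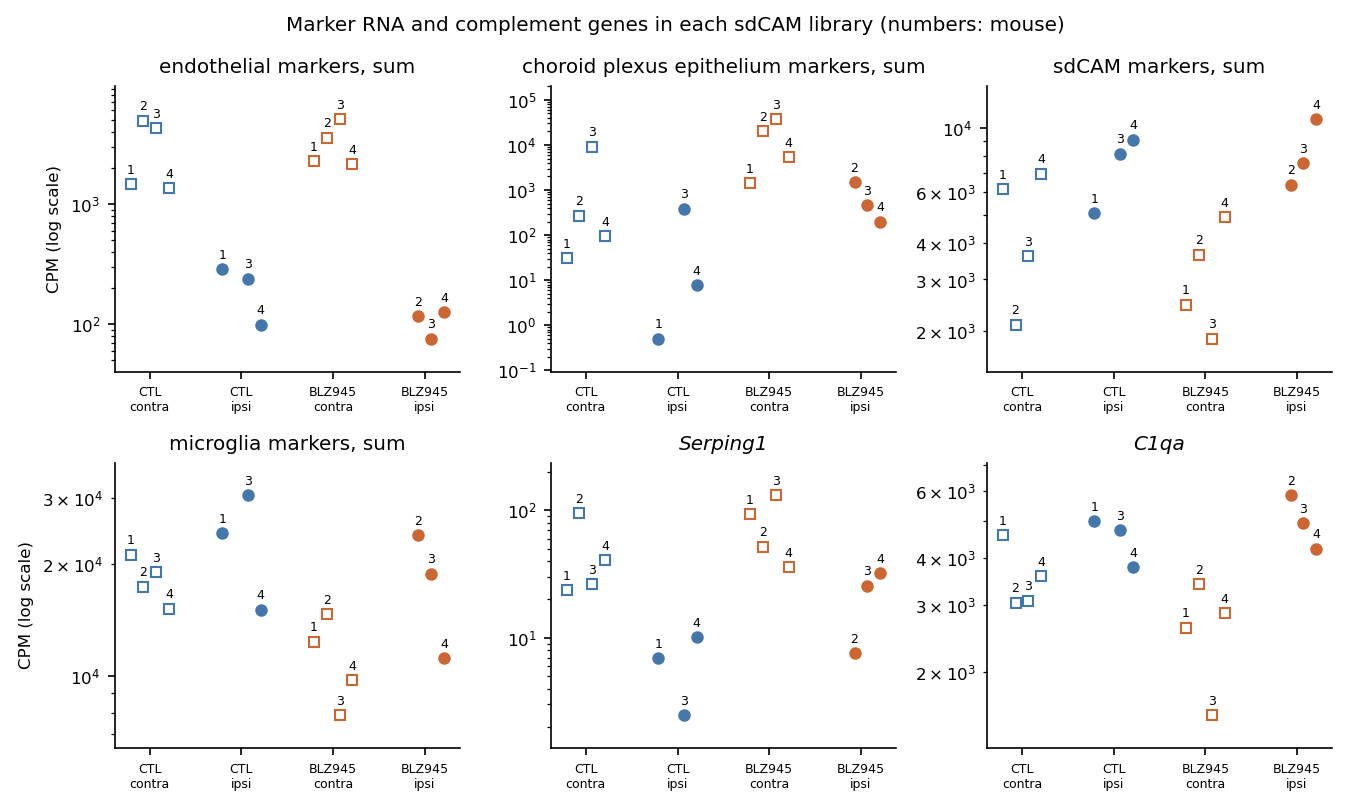
Summed marker levels of 4 cell types and the levels of Serping1 and C1qa in each of the 14 sdCAM libraries, in CPM on a log axis. Numbers give the mouse within its treatment, open squares are contralateral and filled circles ipsilateral. Endothelial sums are 1350 to 5094 contralaterally and 75.7 to 288 ipsilaterally, and Serping1 is lower on the same side.

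No member differed between BLZ945 and CTL sdCAMs in the stroke response, in ipsilateral or in contralateral libraries by edgeR, and no gene was called in these comparisons. The members at an unadjusted p under 0.05 numbered 0, 1 and 1, again without the share of all genes, and DESeq2 and limma-voom called none of them. Over all genes DESeq2 called 12 up and 36 down in the stroke response, 35 and 88 in ipsilateral and 31 and 8 in contralateral libraries, and limma-voom 7 and 4 in contralateral ones. The ipsilateral member was Serping1, which was 1.74 ± 0.68 higher in BLZ945 mice with overlapping groups (adjusted p = 0.838). Fibroblast marker sums in these libraries were 40.9, 57.3 and 53.1 CPM in CTL mice 1, 3 and 4 and 53.6, 468 and 414 in BLZ945 mice 2 to 4, of which mice 3 and 4 had the most Serping1, and their part in the difference was not tested. The contralateral member was C1qc at -0.52 ± 0.23 (adjusted p = 0.759), beside -0.45 for C1qa, -0.43 for C1qb and -1.19 ± 0.58 for C4b.

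Set against tissue, sdCAM libraries held far more receptor and C1q RNA. In contralateral libraries 8 of 9 members were higher in sdCAMs, where 30.3% of 19389 genes were called up, and in ipsilateral libraries 7 of 9 were, where 25.3% were. Contralaterally C5ar1 was 411-fold higher, C3ar1 144-fold, C1qb 86.2-fold, C1qc 72.1-fold and C1qa 44.3-fold. C3 was 8.98-fold, Serping1 7.64-fold and C4b 4.2-fold higher. Ipsilaterally Serping1 stood level, at a log2 difference of -0.03 ± 0.36 (95% interval -0.74 to 0.67, adjusted p = 0.954), and C5ar1 was 162-fold higher. Material and library preparation cannot be told apart in these values. The microglial genes P2ry12 and Tmem119 were also higher in contralateral sdCAM libraries. Their medians were 1018 and 892 CPM per kb, against 10.02 and 12.74 in contralateral tissue. Mrc1 stood at 103 against 0.488 CPM per kb. The part of microglial RNA in the C1q and receptor values was not tested.

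The stroke response itself differed between sdCAMs and tissue for 2 members, both lower in sdCAMs, where 17% of genes were called lower. C5ar1 rose less in sdCAMs, by -1.35 ± 0.36 on the log2 scale (adjusted p = 0.00828). Serping1 differed by -2.97 ± 0.51 (adjusted p = 0.000107). The difference of C5ar1 was -0.50 with the column names followed for CTL mouse 2 (adjusted p = 0.646), and limma-voom and the fit with all 16 sdCAM libraries did not call it either. C3ar1 differed by -0.66 ± 0.35 (adjusted p = 0.207), and the C1q chains by 0.10 to 0.28 with intervals that span 0.

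**Figure D4:**
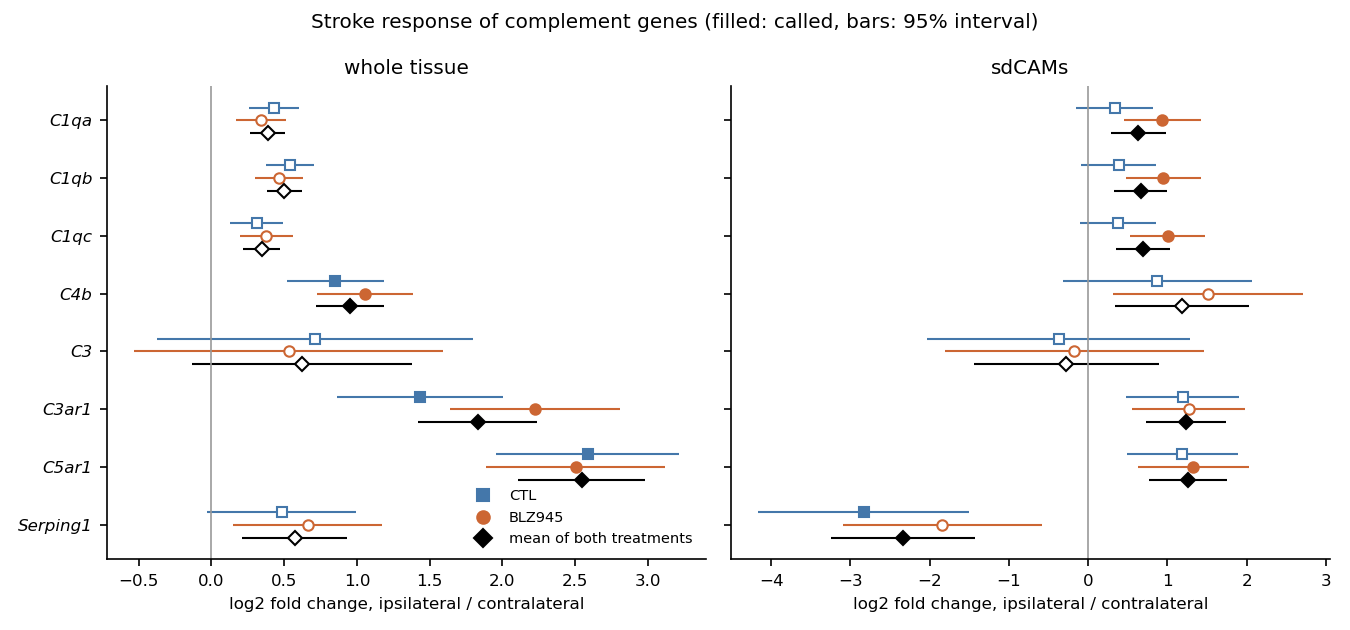
Log2 fold change of ipsilateral over contralateral libraries for 8 members in tissue and in sdCAMs, with 95% intervals, in CTL mice, BLZ945 mice and the mean of both. Filled symbols were called. In the mean of both treatments C5ar1 has the largest change in tissue, at 2.54, and Serping1 in sdCAMs, at -2.34. The sdCAM C1q values of that mean go to between -0.065 and -0.017 when scaled to macrophage genes.

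The rest of the pathway was read from 43 further complement genes, of which 31 were tested in tissue and 33 in sdCAMs. In tissue 3 rose over both treatments and none fell, all of them from the receptor group of the list. Itgax at 1.89 ± 0.28 and Itgb2 at 0.86 ± 0.17 encode chains of the integrin receptors for C3 fragments. Cd93, at 1.14 ± 0.14, is a membrane protein once taken for a C1q receptor. Itgax was near the 3-count floor in contralateral tissue, at a mean of 0.557 CPM (0.178 to 1.20) with both materials normalized together. With C3ar1 and C5ar1, 5 of 8 tested genes of the receptor group rose, Cd93 among them, where 1.93% of all genes were called up. None of 5 lectin pathway, 4 terminal, 4 soluble regulator or 7 membrane regulator genes was called. The median of the 31 genes was -0.03, beside -0.01 over all genes. The 3 rises kept their calls without CTL mouse 2 (adjusted p = 0.00183, 0.0417 and 0.00125) and lost them with its column names followed (adjusted p = 0.102, 0.334 and 0.0864).

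In sdCAMs 5 of the 33 rose and 7 fell, but none of the 5 rises was called, at 0.16 to 0.55, when libraries were scaled to macrophage genes, whereas the 7 falls were. Over all genes 3.91% were called up and 11.1% down. Among those that rose were the integrin chains Itgam (0.84 ± 0.19), Itgb2 (0.91 ± 0.19) and Itgax (1.27 ± 0.38). The sort had selected for CD11b, the product of Itgam, and against CD11c, the product of Itgax. Cfp (0.99 ± 0.22), or properdin, which stabilizes the alternative pathway convertase, rose as well. So did Fcna (1.27 ± 0.27), a recognition molecule of the lectin pathway. Those that fell included Clu (-3.58 ± 0.49) and Vtn (-2.39 ± 0.46), soluble regulators of the terminal complex, and Cd59a (-4.23 ± 0.59) and Cd55 (-1.58 ± 0.48), regulators on the cell membrane. C1s1, Cd59b and Hc also fell, from at most 40.2, 5.55 and 8.90 CPM to at most 2.37, 0.502 and 0.429. Without BLZ945 mouse 3, both libraries left out, Cd55 (-1.10, adjusted p = 0.155), Hc (-3.78, adjusted p = 0.113) and Itgax (1.07, adjusted p = 0.136) lost their calls. These falls came in the libraries with less endothelial, choroid plexus and oligodendrocyte RNA described above, and the part of those cells in them was not tested. Clu, Vtn and Cd59a had no overlap between the sides over both treatments, as for 4.28% of genes.

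Cd55, which speeds the decay of C3 convertases, stood on opposite sides in the treatments. CTL mice held 13.4, 12.4, 22.4 and 21.5 CPM contralaterally and 28.2, 26.8 and 26.9 ipsilaterally, and BLZ945 mice 5.19, 28.4, 55.1 and 15.2 against 0.85, 1.00 and 3.60. All CTL ipsilateral libraries were above the contralateral ones, as for 5.7% of genes, and all BLZ945 ones below, as for 12.4%. The fall in BLZ945 mice was called (-3.81 ± 0.76, adjusted p = 0.01), and the difference of the responses, -4.46 ± 0.96, was not (adjusted p = 0.694). The change in CTL mice was 0.65 (adjusted p = 0.626), and 0.08 when scaled to macrophage genes.

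Against tissue, Itgb2 was 5.66 and 5.65 higher in sdCAMs on the log2 scale on the contralateral and ipsilateral side. Fcna and Vsig4, a macrophage receptor for C3 fragments, were near or below 3 counts in tissue, at 0 to 5 and 0 to 1 counts per library, so no fold is given. Fcna stood at 16.6 to 165 CPM in sdCAMs and Vsig4 at 0 to 17.1. The membrane regulators Susd4 and Csmd1 stood at 136 to 207 and 44.1 to 97.3 CPM in tissue and at most at 4.14 and 7.93 CPM in sdCAMs. Cd46 and Cd59b were also lower in sdCAMs, on the contralateral and the ipsilateral side respectively.

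**Figure D5:**
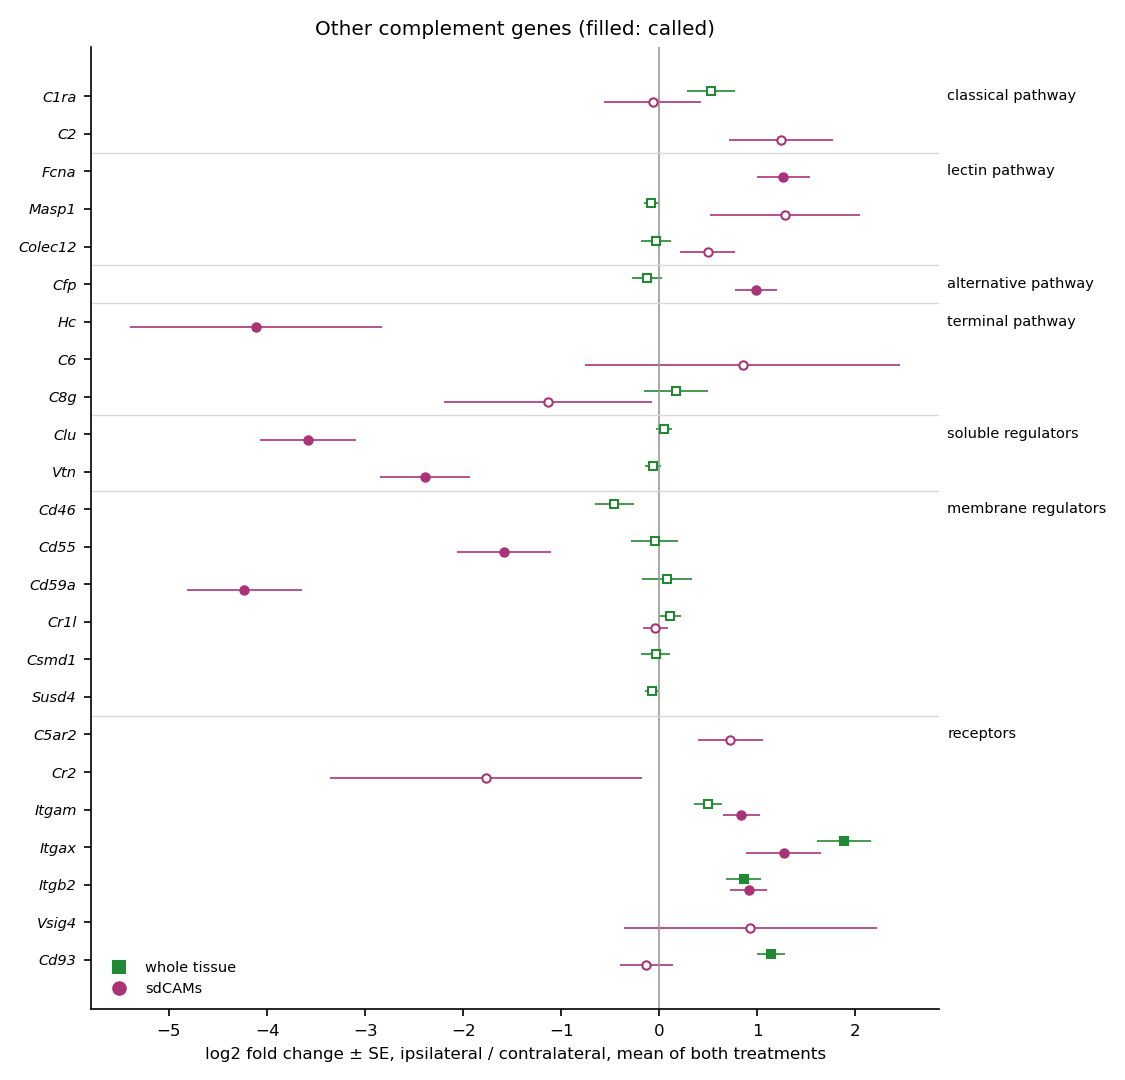
Log2 fold change (± SE) of ipsilateral over contralateral libraries, mean of both treatments, for 24 other complement genes by role, in tissue (squares) and sdCAMs (circles), with filled symbols called. A value is drawn where the mean was at least 1 CPM and no group was at 0 in every library. Called genes of the receptor group lie right of 0 in both materials, in sdCAMs without a call when scaled to macrophage genes, while Clu, Vtn, Cd55 and Cd59a fall in sdCAMs.

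Over the 16 tissue libraries the 3 C1q chains were most like each other and like Ly86 and Ctsz, with Pearson correlations of log2 CPM from 0.92 to 0.95. C5ar1 was most like Osmr, Hmox1 and Plek (0.96) and C3ar1 like Plek, Tagln2 and Osmr (0.93 to 0.95). C4b was most like Gusb, Hspb6 and Ctsc, C3 like Efemp2, Bmp7 and Aebp1, and Serping1 like Lamc1, Aldh1a2 and Nupr1. Over the 14 sdCAM libraries the C1q chains correlated with each other at 0.99, and C3ar1 with C5ar1 at 0.97. Ctsc and Fcgr1 were most like C3ar1, and Flcn, Clec10a and Mrc1 most like C4b (0.94 to 0.95). Serping1 was most like Ptgis, Anxa2 and Snhg18 (0.94 to 0.95) and ran against C1qa at -0.76. Within groups the correlation of C3ar1 and C5ar1 was 0.92 in sdCAMs and 0.56 in tissue. These correlations are descriptions over libraries that share mice and the difference between the hemispheres.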

How the data were processed

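Bulk RNA-seq counts per gene were used for 16 tissue and 16 sdCAM libraries from 8 mice. Per the labels and methods, libraries were made with the SMARTer Ultra Low Input kit and Nextera XT and sequenced as 50-cycle single reads, and the authors aligned reads with STAR 2.7.11a and counted them on genes with featureCounts 2.0.8. They deposited raw counts, 1 table per material, without normalization. The sources used here name more than 1 genome build, so no coordinates of genes are given, and promoters come from RefSeq's GRCm38.p6. Strand was not stated, so reads of overlapping genes cannot be told apart. Sequences were matched by symbol.

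Genes with a summed count under 8 (tissue), 7 (sdCAMs) or 15 (both together) were removed. edgeR 4.0.16 in R 4.3.3 fitted 1 mean per group of treatment, hemisphere and material with TMM normalization, and its quasi-likelihood test was two-sided with Benjamini-Hochberg adjustment over all genes tested. A call needed an adjusted p under 0.05 and a log2 fold change beyond 0.59. CPM are counts scaled to a TMM-normalized library of 1000000. The p-values measure the spread between mice, and the model treats the hemispheres of a mouse as independent. Hemispheres come from the same mouse: deviations from group means correlated at a median of 0.436 (0.214 to 0.645) over 8 tissue pairs and 0.122 (0.0451 to 0.191) over 6 sdCAM pairs. The model was tested on simulated data. All library names share 1 prefix, tissue and sdCAM libraries carry separate index ranges, and no batch was modeled. The methods place the RNA-seq of the stroke work at more than 1 center, without saying which libraries came from which.

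All 9 members were named in every comparison, other complement genes where called within a material, and for sdCAMs against tissue the 3 largest changes each way at a mean of at least 1 CPM. The genes most like a member were the 3 with the highest correlation of log2 CPM among genes of at least 5 CPM on average. The members, the complement list of 52 genes and the marker lists were chosen with earlier results of these data known, and 1 further gene of the list is not reported here. Alternatives were DESeq2 1.42.0, its size factors in edgeR, library totals, no fold threshold, no filter, filterByExpr, limma-voom (limma 3.58.1) with a random mouse effect, a replicate block, the table's hemispheres for CTL mouse 2, all 16 sdCAM libraries, scaling to 20 macrophage genes and leaving out each mouse. Floors of 3 counts cover counting error only.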

Additional observations from a re-analysis of the deposited data

Results flagged for a closer look

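C1qc and Serping1 held 4 tissue values far from the other mice of their group. C1qc in contralateral BLZ945 tissue was 68.5 CPM in mouse 1 and 57.2 to 59.0 in the others. In ipsilateral BLZ945 tissue it was 68.5 CPM in mouse 3 and 81.3 to 83.0 in the others, and in contralateral CTL tissue 48.8 CPM in mouse 4 and 55.9 to 57.1 in the others. Serping1 in contralateral CTL tissue was 4.07 CPM in mouse 4 and 7.77 to 7.99 in the others. In each case the gap to the nearest mouse took up most of the range of the group (Dixon's criterion). Of 54 groups of members examined 4 met it, and chance alone gives about 1 in 20.

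The stroke response differed between sdCAMs and tissue for C5ar1, by -1.35, and for Serping1, by -2.97 on the log2 scale, as tested by the interaction of hemisphere and material. Over all genes 17% were called lower in this comparison, so the number of members called is near the share of all genes. In both materials C5ar1 was higher on the lesioned side in every mouse with both libraries. Serping1 was higher there in 8 of 8 mice in tissue and lower in 6 of 6 in sdCAMs. Endothelial markers, summed, were 1350 to 5094 CPM in contralateral and 75.7 to 288 in ipsilateral sdCAM libraries, and their part in the difference was not tested.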

How the results depend on the processing

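Over the alternatives 2274 values of members were recomputed: 2160 kept direction and call, 83 lost the call, 28 gained one and 3 reversed. The reversed ones are the sdCAM changes of C1qa (-0.065), C1qb (-0.043) and C1qc (-0.017) over both treatments when scaled to macrophage genes. Of 1623 values without a call 84 changed sign. The number of members called moved by more than 1.5 times as follows. Without a fold threshold it was 5 in place of 3 in CTL tissue and 6 in place of 3 in tissue over both treatments. The replicate block gave 5 in place of 3 there. With the table's hemispheres for CTL mouse 2 it was 0 in tissue in CTL, in BLZ945 and over both treatments, and 1 in place of 2 for the difference between materials. In sdCAMs of CTL mice DESeq2 gave 3, limma-voom 2 and all 16 libraries 0 in place of 1. In sdCAMs of BLZ945 mice library totals and all 16 libraries gave 0 and macrophage scaling 1 in place of 4. In sdCAMs over both treatments library totals and macrophage scaling gave 3 and all 16 libraries 1 in place of 6. For the difference between materials limma-voom and all 16 libraries gave 1. The cause was not tested.

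Leaving out each mouse in turn gave 1 to 3 members in CTL tissue, 3 in BLZ945 tissue and 3 to 4 over both, 0 to 1 in CTL sdCAMs, 0 to 5 in BLZ945 sdCAMs and 3 to 7 over both, always 8 and 7 for sdCAMs against tissue and 2 for the difference between materials. In sdCAMs over both treatments it was 3 without CTL mouse 3 or BLZ945 mouse 3. The replicate block changed no other call than those named with the results. Depth limits Cfb, and C3 in tissue at 6 to 71 counts.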
